A study of Caenorhabditis elegans with 6 samples.

Results

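A set of 52 Argonaute, small RNA pathway and germ granule genes was followed in RNA-seq counts of whole Caenorhabditis elegans. The genes were chosen by their WormBase symbols, and all 52 were found among the 46911 genes of the count files. The filter on low counts left 14506 genes for testing, 51 of the 52 among them. The exception was wago-5, which had 3 counts in all mutant libraries together and 19 in all wild-type libraries.

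The mutant group was strain VC295, which carries the ok613 allele of unc-30 on chromosome IV (n = 3), and the wild-type group was strain N2 (n = 3). The unc-30 product is a transcription factor of the homeodomain class that gives D-type motor neurons their GABA identity. Both groups were whole animals at the L4 larval stage, raised at 20 °C from synchronized egg lays, and no further allele or treatment is named. The genotype label reads unc-30(ok613) for all 6 samples, so the groups follow the strain labels.

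Argonaute proteins are loaded with short RNAs and use them to find matching transcripts. In C. elegans, microRNAs, Piwi-interacting RNAs (piRNAs) and small interfering RNAs (siRNAs) each have Argonautes of their own. The primary siRNAs and piRNAs start a second round of synthesis by RNA-dependent RNA polymerases, and the resulting 22G RNAs load a large worm-specific family of secondary Argonautes. Much of this machinery sits in germ granules, the RNA-protein bodies around germ cell nuclei, where gene silencing is set and passed to the next generation. At L4 the hermaphrodite germline is making sperm and has not yet turned fully to oocytes.

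The libraries held 17318736 to 26377332 counts, and each pair of replicates differed by more than sampling noise. Levels are CPM, counts brought to a common library size, after TMM scaling on the bulk of genes; the TMM factors were 0.654 to 0.760 for mutant libraries against 1.38 to 1.49 for N2. When libraries were scaled by their totals instead, the median over all genes moved by -1.01 on the log2 scale, so changes are given relative to the bulk of genes. The labels do not say that replicates were separate cultures, so p-values measure only the spread between these samples. Counts of unc-30 itself did not check the labels: it had 1.29, 1.40 and 1.29 CPM in the mutant, against 0.586, 1.07 and 0.533 CPM in wild type (log2 fold change 0.88 ± 0.42, SE; edgeR adjusted p = 0.128).

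Most of the genes that passed the test were lower in the mutant. Of the 51 genes tested, 22 were lower and 2 were higher in unc-30(ok613) animals at an edgeR adjusted p under 0.05, and 27 did not pass. The background for all genes was 20.9% lower and 17.1% higher, or 38% in either direction. The median log2 fold change was -0.70 over the 51 genes and -0.10 over all 14506. The 2 higher genes were the microRNA Argonaute alg-1 and the germline Argonaute ppw-2. Under total-count scaling neither of them passed (background 3.43% higher), and 41 of the 51 were lower (background 56.4%). In whole animals, fewer cells of a type and less RNA per cell cannot be told apart.

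These counts depended on single libraries, as did those over all genes. Leaving out mutant replicate 3 left 10 called lower, and leaving out mutant replicate 2 left 11. Over all genes, 1432 and 1424 were lower in those fits, against 3035 with all libraries. Leaving out wild-type replicate 3, 1 or 2 gave 14, 17 or 21 in the set (1882, 2555 or 3257 over all genes). Leaving out mutant replicate 1 gave 27 (3168 over all genes). The last of these added alg-5, meg-1, mut-7, rde-8 and wago-1 to the lower genes, and leaving out wild-type replicate 2 added henn-1 as lower and sago-2 as higher. The 10 that were lower in every one of these fits were rde-1, prg-2, drh-3, nrde-1, nrde-2, nrde-4, rrf-1, rrf-2, rrf-3 and dcr-1. The number called higher by edgeR was 0 without mutant replicate 3, wild-type replicate 1 or wild-type replicate 3 (1359, 1942 or 1584 over all genes). With all libraries, 3 were higher at an unadjusted p under 0.05, and DESeq2 and limma-voom each called 2.

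**Figure D1:**
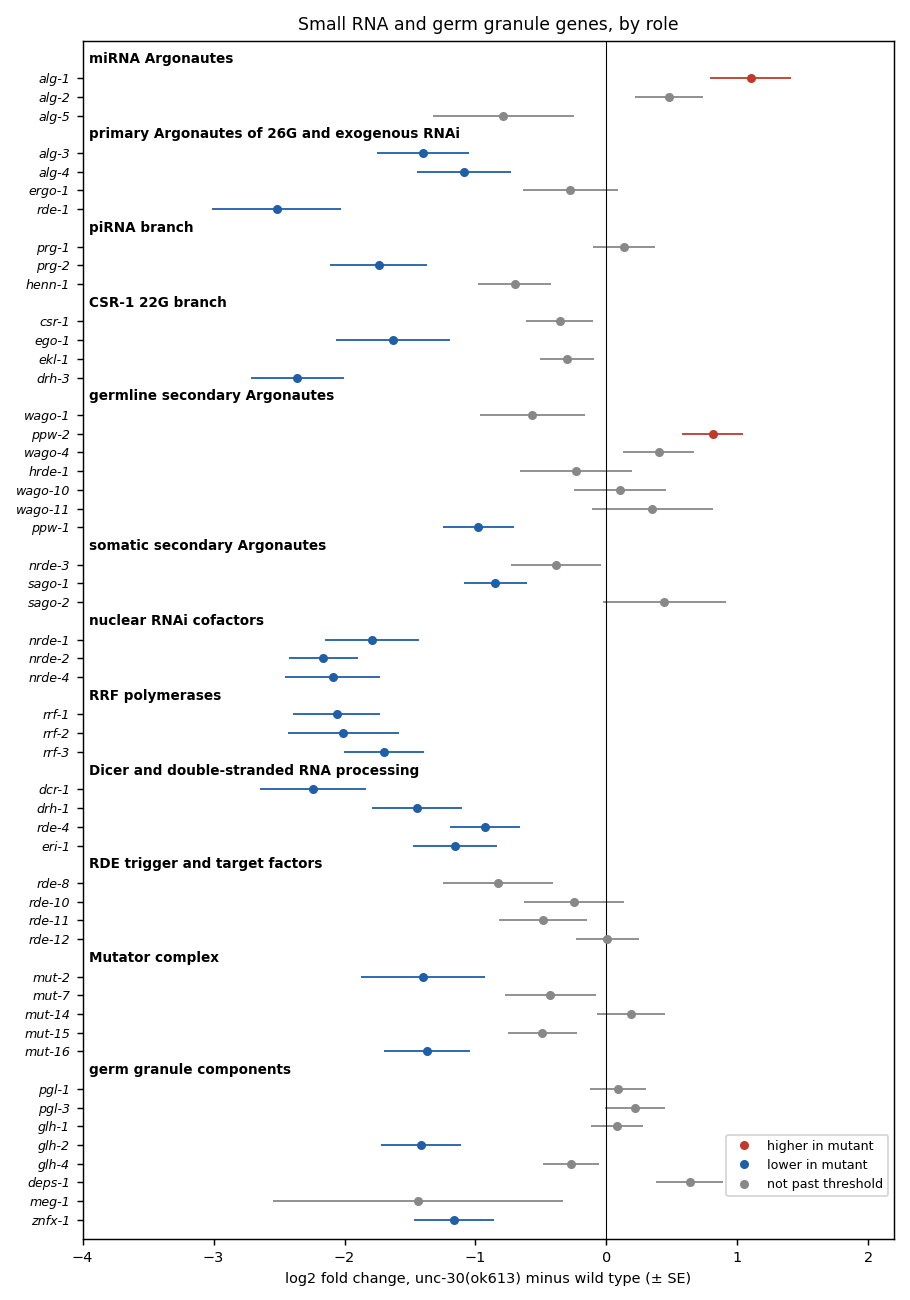
Log2 fold change of each of the 51 tested genes, unc-30(ok613) minus wild type, with bars of 1 SE from the edgeR fit (n = 3 each), grouped by role. Red and blue points passed an adjusted p of 0.05 as higher (2 genes) and lower (22 genes) in the mutant, and grey points (27 genes) did not; under total-count scaling ppw-2 stood at -0.19 and alg-1 at 0.08.

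The pair of Argonautes that serve spermatogenesis was lower in the mutant. alg-3 and alg-4 are near-identical Argonautes that bind 26G siRNAs in the spermatogenic germline and are needed for sperm that work at high temperature. alg-3 (IV:11704246-11708264, WBcel235) had 38.3, 17.7 and 19.3 CPM in mutant replicates 1 to 3, against 47.3, 70.5 and 80.7 CPM in wild type. Every mutant library was below every wild-type library, although mutant replicate 1 and wild-type replicate 1 lay close together. Its log2 fold change was -1.40 ± 0.35 (SE; edgeR adjusted p = 0.0162). alg-4 (III:9887209-9891424) had 59.7, 27.9 and 30.2 CPM in the mutant, against 55.6, 101 and 93.9 CPM in wild type. Its groups overlapped, since mutant replicate 1 was above wild-type replicate 1. The log2 fold change of alg-4 was -1.09 ± 0.36 (SE; adjusted p = 0.0415).

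The alg-3 call was lost without mutant replicate 2, mutant replicate 3 or wild-type replicate 3, and the alg-4 call also without wild-type replicate 2, with fold changes of -1.13 to -1.77 for alg-3 and -0.83 to -1.46 for alg-4 over the 6 fits. Since these genes resemble each other closely, reads shared between them could not be checked, and their separate values are uncertain; the same holds for alg-1 and alg-2 and for glh-1 and glh-2.

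The other Argonautes that take up primary siRNAs split. rde-1 binds primary siRNAs cut from exogenous double-stranded RNA and is required for RNA interference (RNAi). It had 11.4, 3.80 and 4.70 CPM in the mutant, against 53.3, 23 and 37.7 CPM in wild type. Each mutant library lay below the lowest wild-type library, and the log2 fold change of -2.52 ± 0.49 (SE; adjusted p = 0.00684) was the lowest of the 51 genes. ergo-1, the Argonaute of 26G siRNAs in oocytes and embryos, had 87.9, 47.2 and 56.0 CPM in the mutant, against 116, 67.4 and 47.9 CPM in wild type. Its groups overlapped (log2 fold change -0.28 ± 0.36, SE; adjusted p = 0.571).

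In the piRNA branch, prg-1 and prg-2 differed from each other. prg-1, the Piwi Argonaute that binds piRNAs in germ granules, had 296, 202 and 212 CPM in the mutant, against 190, 267 and 191 CPM in wild type. The groups overlapped, with the highest value in mutant replicate 1 and the next in wild-type replicate 2 (log2 fold change 0.13 ± 0.24, SE; adjusted p = 0.680). prg-2 is its close copy on chromosome IV (6526962-6529802), annotated as a pseudogene in the release used. It had 63.2, 28.4 and 24.5 CPM in the mutant, against 151, 107 and 129 CPM in wild type. No library of one group reached the other, and the log2 fold change was -1.74 ± 0.37 (SE; adjusted p = 0.00885). The difference between the 2 genes was not tested, and reads that both could take could not be checked. henn-1, the methyltransferase that protects the ends of piRNAs, had 10.3 to 13.2 CPM in the mutant and 13.8 to 23.5 CPM in wild type; its groups did not overlap, but it did not pass (adjusted p = 0.0763).

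**Figure D2:**
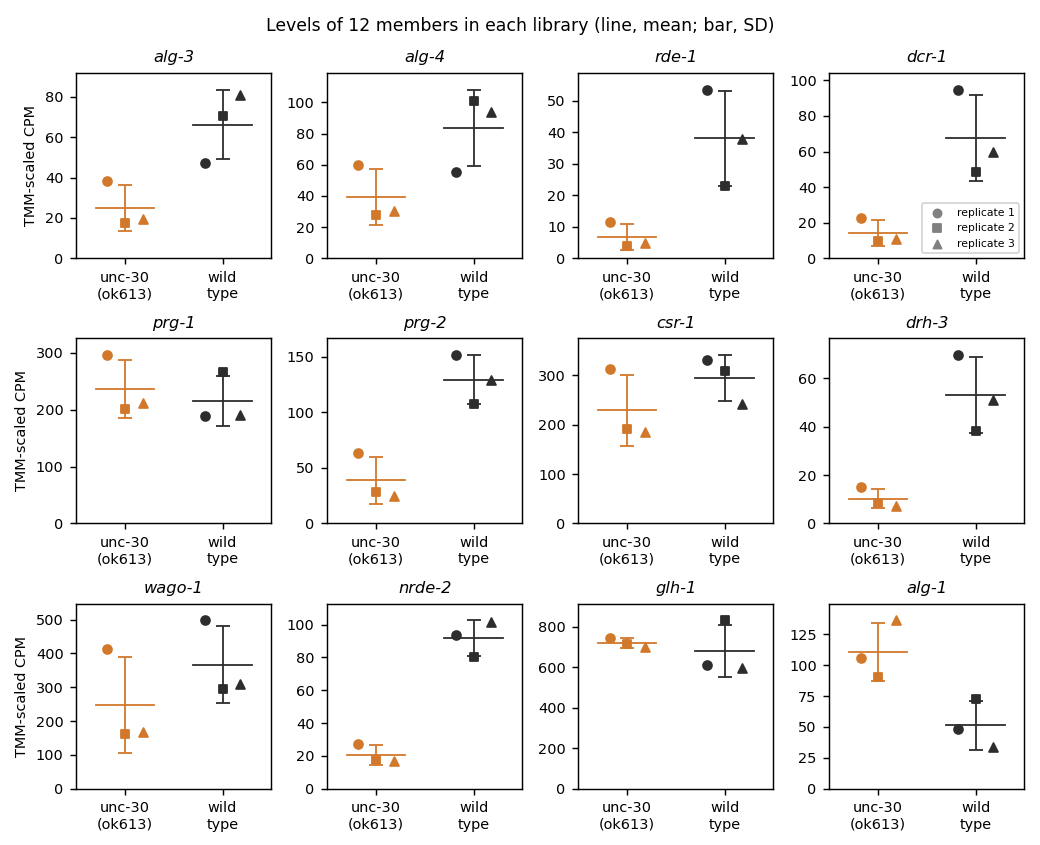
TMM-scaled CPM of 12 of the genes in each library, with the unc-30(ok613) mutant left of wild type in each panel; circles, squares and triangles are replicates 1, 2 and 3, the line is the mean and the bar 1 SD (n = 3). rde-1, dcr-1, prg-2, drh-3 and nrde-2 do not overlap between groups, while prg-1, csr-1, wago-1 and glh-1 do.

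In the CSR-1 branch, the Argonaute itself did not pass while part of its machinery was lower. csr-1 binds 22G RNAs against transcripts that the germline expresses. It had 312, 190 and 185 CPM in the mutant, against 331, 308 and 242 CPM in wild type, and the groups overlapped through mutant replicate 1 (log2 fold change -0.36 ± 0.26, SE; adjusted p = 0.297). Of the exonic bases of csr-1, 11.9% also belong to another gene on the same strand, so part of its reads may not have been counted for it. drh-3, a Dicer-related helicase needed to make 22G RNAs, had 15, 8.48 and 7.42 CPM in the mutant, against 69.4, 38.2 and 51.1 CPM in wild type. Its highest mutant library was well below its lowest wild-type library, with a log2 fold change of -2.36 ± 0.36 (SE; adjusted p = 0.00311). ego-1, the germline RNA-dependent RNA polymerase, had 35.8, 15.2 and 14.2 CPM in the mutant, against 96.8, 44.2 and 60.9 CPM in wild type (log2 fold change -1.63 ± 0.44, SE; adjusted p = 0.0217). That call did not overlap between groups but was lost without mutant replicate 2, mutant replicate 3, wild-type replicate 1 or wild-type replicate 3. ekl-1, a Tudor domain partner of these proteins, had 34.5 to 44.6 CPM in the mutant and 45.4 to 51.9 CPM in wild type, apart by a narrow margin (adjusted p = 0.275).

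The RRF polymerases, which copy target transcripts into siRNAs, were lower in all 3 cases, against 20.9% of all genes. rrf-1, which makes secondary siRNAs in the soma, had 10.4, 4.97 and 5.98 CPM in the mutant, against 35.3, 27.4 and 26.4 CPM in wild type. The groups were far apart, with a log2 fold change of -2.06 ± 0.33 (SE; adjusted p = 0.00366). rrf-3, which makes the primary 26G siRNAs, had 14.7, 9.71 and 10.4 CPM in the mutant, against 50.9, 28.3 and 34.0 CPM in wild type (log2 fold change -1.70 ± 0.31, SE; adjusted p = 0.00504). rrf-2 was scarce, with 29, 12 and 14 counts in the mutant and 232, 118 and 123 counts in wild type, and was lower too (log2 fold change -2.01; adjusted p = 0.00827). rrf-1 and ego-1 lie 563 bp apart on chromosome I.

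Dicer and its partners were also lower. dcr-1 encodes the only Dicer of the worm, which cuts double-stranded RNA and microRNA precursors. It had 22.6, 9.47 and 10.8 CPM in the mutant, against 94.6, 48.4 and 59.7 CPM in wild type. The highest mutant value lay below the lowest wild-type value, and the log2 fold change was -2.24 ± 0.40 (SE; adjusted p = 0.0051). drh-1, a helicase of the antiviral response, had a log2 fold change of -1.45 ± 0.34 (SE; adjusted p = 0.0127). rde-4, the double-stranded RNA binding partner of Dicer, was at -0.93 ± 0.27 (adjusted p = 0.0255), and eri-1, an exonuclease of the 26G pathway, at -1.16 ± 0.32 (adjusted p = 0.0231). None of the 4 overlapped between groups, where 28.2% of all genes were separated downward and 20.9% were called lower. The calls of drh-1, rde-4 and eri-1 were lost without mutant replicate 2 or mutant replicate 3, and those of rde-4 and eri-1 also without wild-type replicate 1 or wild-type replicate 3.

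All 3 cofactors of nuclear RNAi were lower (20.9% of all genes were), while the Argonaute that they work with in the soma was not called. These proteins act at nascent transcripts that siRNAs have found. nrde-2, which joins the Argonaute on the pre-mRNA, had 27.3, 17.4 and 16.7 CPM in the mutant, against 93.6, 80.0 and 101 CPM in wild type. It had the smallest adjusted p of the 51 genes (log2 fold change -2.16 ± 0.26, SE; adjusted p = 0.00232). nrde-1 and nrde-4, which act with it, had log2 fold changes of -1.79 ± 0.36 (SE; adjusted p = 0.00672) and -2.09 ± 0.36 (SE; adjusted p = 0.00448), and neither overlapped between groups. nrde-3, the Argonaute that carries siRNAs into somatic nuclei, had 11, 8.24 and 9.09 CPM in the mutant, against 15.9, 14.2 and 7.02 CPM in wild type. Its groups overlapped through wild-type replicate 3 (log2 fold change -0.39 ± 0.34, SE; adjusted p = 0.396).

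The germline secondary Argonautes varied among themselves. ppw-2, also known as wago-3, a germ granule Argonaute, had 292, 245 and 285 CPM in the mutant, against 118, 199 and 151 CPM in wild type. The groups did not overlap, and ppw-2 was higher (log2 fold change 0.81 ± 0.23, SE; adjusted p = 0.0258), but under total-count scaling its fold change was -0.19. ppw-1, needed for RNAi in the germline, went the other way, with 52.5, 28.8 and 30.9 CPM in the mutant and 81.9, 71.7 and 67.7 CPM in wild type (log2 fold change -0.98 ± 0.27, SE; adjusted p = 0.0232). Each of these calls was lost without mutant replicate 2, mutant replicate 3, wild-type replicate 1 or wild-type replicate 3.

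The 5 others tested in that class did not pass. wago-1, a main 22G Argonaute of germ granules, had 412, 163 and 168 CPM in the mutant, against 497, 294 and 309 CPM in wild type, so replicate 1 was the highest in each group and the groups overlapped (adjusted p = 0.290). It was called lower without mutant replicate 1 (-1.08, adjusted p = 0.0226). hrde-1, the Argonaute of nuclear inheritance in the germline, was also highest in replicate 1 of each group, with 279, 101 and 116 CPM in the mutant and 270, 179 and 136 CPM in wild type (adjusted p = 0.688). wago-4, another Argonaute of inherited silencing, had 112 to 191 CPM in the mutant and 82.6 to 122 CPM in wild type (adjusted p = 0.267). wago-10 had 35.2, 38.4 and 38.2 CPM in the mutant, against 17.8, 51.1 and 35.2 CPM in wild type; the wild-type libraries bracketed all mutant ones (adjusted p = 0.833). wago-11, annotated as a pseudogene, had only 11 to 20 counts in each mutant library and 13 to 39 in each wild-type library (adjusted p = 0.566). For wago-5, which was not tested, the ratio of mutant to wild-type counts after scaling was 0.329, with an exact 95% counting interval of 0.0623 to 1.12.

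Among the other somatic secondary Argonautes, sago-1 was lower. It had 30.7, 23 and 28.9 CPM in the mutant, against 41.9, 61.3 and 45.4 CPM in wild type, with no overlap (log2 fold change -0.85 ± 0.24, SE; adjusted p = 0.0249). Its call was lost without mutant replicate 2, mutant replicate 3, wild-type replicate 2 or wild-type replicate 3. sago-2 had 10.2 to 15.7 CPM in the mutant and 4.20 to 16.2 CPM in wild type, so its groups overlapped (adjusted p = 0.476).

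Of the 3 microRNA Argonautes, 1 was higher and 2 did not pass, where 17.1% of all genes were higher. alg-1, the main microRNA Argonaute of somatic tissues (X:13949110-13956261), had 105, 90.4 and 136 CPM in the mutant, against 48.4, 72.7 and 33.5 CPM in wild type. The lowest mutant library was above the highest wild-type library, and the log2 fold change was 1.10 ± 0.31 (SE; adjusted p = 0.0241). Under total-count scaling it was 0.08 (adjusted p = 0.843), and the call was lost without mutant replicate 3, wild-type replicate 1 or wild-type replicate 3. alg-2, its close relative, had 39.8, 43.6 and 45 CPM in the mutant, against 34.1, 36.9 and 21.1 CPM in wild type, which did not overlap and did not pass (log2 fold change 0.48 ± 0.26, SE; adjusted p = 0.170). alg-5, a germline microRNA Argonaute, had 44.3, 14.5 and 14.8 CPM in the mutant, against 68.2, 29.4 and 29.4 CPM in wild type. Its groups overlapped because mutant replicate 1 was above wild-type replicates 2 and 3 (log2 fold change -0.79 ± 0.54, SE; adjusted p = 0.276). It was called lower without mutant replicate 1 (-1.46, adjusted p = 0.0290) and with both replicate 1 libraries left out (-0.97, adjusted p = 0.0127), and stood at -0.26 without wild-type replicate 1.

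Of the 5 Mutator genes, whose products gather in perinuclear foci and amplify siRNAs, 2 were lower, against 20.9% of all genes. mut-16, the scaffold of these foci, had 31.3, 15.5 and 18.2 CPM in the mutant, against 74.1, 46.0 and 47.9 CPM in wild type (log2 fold change -1.37 ± 0.33, SE; adjusted p = 0.0139). Its groups did not overlap, but the call was lost without mutant replicate 2 or mutant replicate 3. mut-2, the nucleotidyltransferase that adds poly(UG) tails to targets, had 7.20, 3.86 and 3.56 CPM in the mutant, against 20.1, 6.17 and 12.3 CPM in wild type. Its groups overlapped, it passed by a small margin (log2 fold change -1.40 ± 0.47, SE; adjusted p = 0.0458), and it did not pass with RLE scaling, with limma-voom or without mutant replicate 2, mutant replicate 3, wild-type replicate 1 or wild-type replicate 3. The exonuclease gene mut-7, the helicase gene mut-14 and mut-15 had log2 fold changes of -0.43, 0.19 and -0.49, and only mut-15 was without overlap between groups (14.5 to 24.7 CPM in the mutant and 25 to 27 CPM in wild type).

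None of the 4 RDE factors that act between trigger and target passed edgeR's test, none had an unadjusted p under 0.05, and neither DESeq2 nor limma-voom called one. The log2 fold changes were -0.83 for the nuclease gene rde-8, -0.25 for rde-10, -0.48 for rde-11 and 0.01 for the helicase gene rde-12. The 4 genes overlapped between groups. Over all genes, 38% passed edgeR's test in either direction and 52.6% did not overlap. rde-8 was called lower without mutant replicate 1 (-1.23, adjusted p = 0.0395), and under total-count scaling all 4 were lower (background 56.4%). rde-11 lies 12049 bp from unc-30 on chromosome IV, with 3 genes between them.

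The core components of germ granules stayed near the bulk of genes. glh-1 encodes a Vasa-like helicase that marks germ granules, and pgl-1 and pgl-3 encode their scaffold proteins. glh-1 had 745, 714 and 699 CPM in the mutant, against 611, 830 and 598 CPM in wild type (log2 fold change 0.08 ± 0.20, SE; adjusted p = 0.763). pgl-1 had 527, 371 and 345 CPM in the mutant, against 378, 413 and 376 CPM in wild type (log2 fold change 0.09 ± 0.22, SE; adjusted p = 0.763). In both genes the libraries of the groups were interleaved. pgl-3 had a log2 fold change of 0.22 ± 0.23 (SE; adjusted p = 0.479), and glh-4, another helicase of the family, one of -0.27 ± 0.21 (SE; adjusted p = 0.340). Under total-count scaling the fold changes of glh-1, pgl-1 and pgl-3 were -0.93, -0.91 and -0.79.

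Of the 8 granule genes, 2 were lower, near the share of 20.9% over all genes. glh-2, the close relative of glh-1, had 56.2, 31.0 and 34.5 CPM in the mutant, against 143, 95.1 and 86.5 CPM in wild type (log2 fold change -1.42 ± 0.31, SE; adjusted p = 0.00895). znfx-1, the helicase of Z granules, had 53.9, 24.4 and 38.6 CPM in the mutant, against 105, 83.0 and 74.4 CPM in wild type (log2 fold change -1.16 ± 0.31, SE; adjusted p = 0.0192). Neither overlapped between groups; the glh-2 call ended when mutant replicate 3 was left out (adjusted p = 0.0537), and that of znfx-1 when mutant replicate 2 or 3 was. deps-1, a granule protein that acts upstream of pgl-1 accumulation, had 196, 128 and 138 CPM in the mutant, against 123, 98.2 and 76.3 CPM in wild type. Its groups did not overlap and it did not pass (log2 fold change 0.64 ± 0.26, SE; adjusted p = 0.0798). meg-1, a germ granule gene of early embryos, had 24.9, 2.10 and 1.89 CPM in the mutant, against 54, 13.2 and 11 CPM in wild type. Replicate 1 was far above the others in both groups, and the groups overlapped (log2 fold change -1.44 ± 1.11, SE; adjusted p = 0.337). It was called lower without mutant replicate 1 (-3.63, adjusted p = 0.0173) and stood at -0.32 without wild-type replicate 1.

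Counted without a threshold, 23 of the 51 genes had every mutant library below every wild-type library, 4 had every mutant library above, and 24 overlapped. Over all 14506 genes, 28.2% were separated downward and 24.4% upward, or 52.6% in either direction. The 4 separated upward were alg-1, alg-2, ppw-2 and deps-1.

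**Figure D3:**
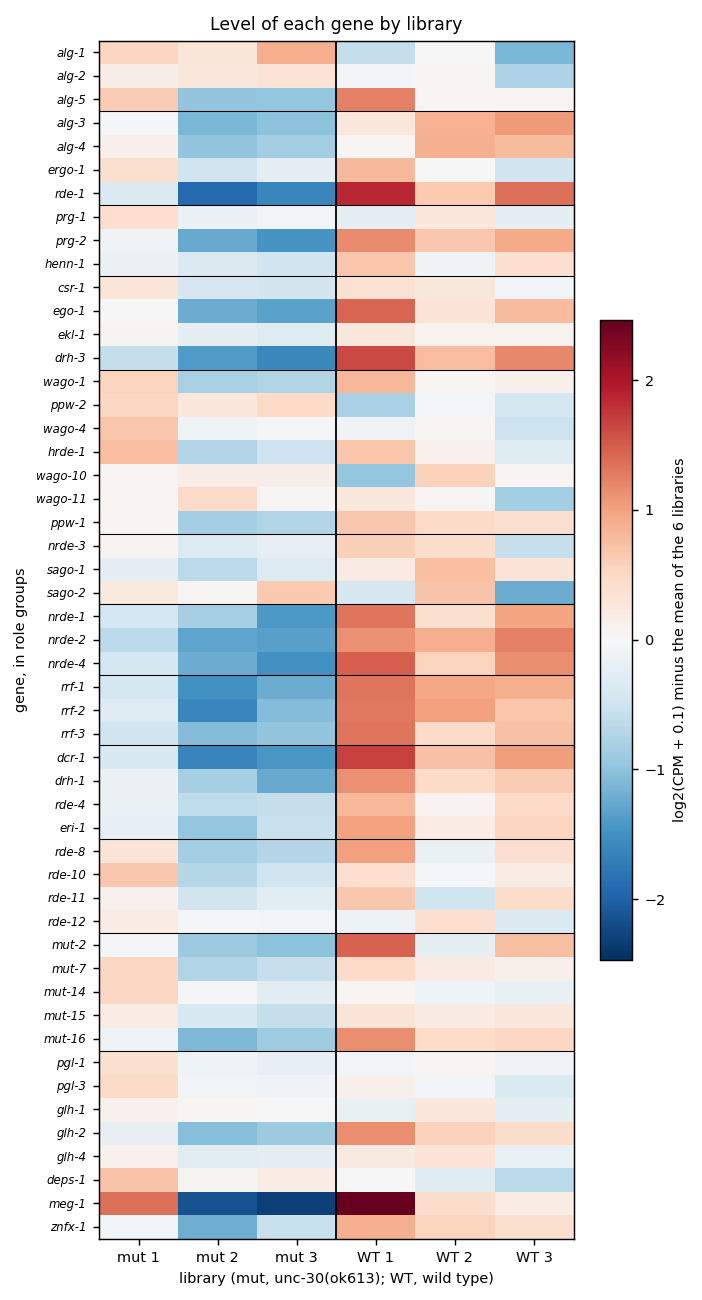
Level of the 51 tested genes in the 6 libraries (mut 1 to 3, unc-30(ok613); WT 1 to 3, wild type), as log2(CPM + 0.1) minus the mean of the 6 libraries, with lines between role groups. Mutant replicate 1 is the highest mutant library for 46 genes and wild-type replicate 1 the highest wild-type library for 36, while replicates 2 and 3 of the mutant are blue across the rows of nrde-1, nrde-2, nrde-4, the rrf genes and dcr-1.

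Replicate 1 stood apart within each group. Of the 51 genes, 46 were highest in mutant replicate 1 among the mutant libraries and 36 in wild-type replicate 1 among the wild-type libraries, where all tested genes gave 42.2% and 34.6%. meg-1 had the widest gap, at 12.5 times the mean of the other replicates in the mutant and 4.46 times in wild type. alg-3 and alg-4 kept this order in the mutant only: there replicate 1 was 2.07 and 2.05 times the mean of the others, and in wild type 0.625 and 0.570 times. This was not particular to them. The ratios in mutant and wild type were 1.43 and 0.828 for prg-1, and 1.10 and 0.671 for ppw-2.

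Markers of oocytes moved with replicate 1, and so did most markers of meiotic prophase and germline stem cells. Of 15 meiotic prophase genes, 15 were highest in mutant replicate 1 and 10 in wild-type replicate 1. For 5 stem cell genes it was 4 in each group, and for 14 spermatogenesis genes 6 and 2. The summed level of 15 oocyte markers was 6814, 1360 and 1469 CPM in the mutant and 5404, 2016 and 1963 CPM in wild type, and all 15 were highest in replicate 1 of each group. None of the 15 was called between genotypes by edgeR, DESeq2 or limma-voom, none had an unadjusted p under 0.05, and all 15 overlapped between groups. Over all genes, edgeR called 38% in either direction and 52.6% did not overlap. Without both replicate 1 libraries, 6 of the 15 were lower. With both replicate 1 libraries left out, an alternative chosen after these levels were seen, 26 genes of the set were lower (background 22.1%) and 0 were higher (background 17.6%). Of those 26, 21 were among the 22 called with all libraries. alg-3 then stood at -1.99 (adjusted p = 0.00358), meg-1 at -2.56 (adjusted p = 0.00487), alg-1 at 1.12 (adjusted p = 0.0814) and ppw-2 at 0.63 (adjusted p = 0.0721).

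Among markers of other germline stages, calls came mainly from meiotic prophase, and the summed levels overlapped between groups for each list. The shares over all genes were 20.9% lower and 17.1% higher. Of 15 genes of meiotic prophase, 9 were lower and none was higher, led by the synaptonemal complex genes syp-4 (log2 fold change -2.43 ± 0.36, SE; adjusted p = 0.0031) and syp-1 (-2.40 ± 0.32, SE; adjusted p = 0.00269). Their summed level was 718 to 1396 CPM in the mutant and 788 to 1155 CPM in wild type. Of 14 spermatogenesis genes, 5 were lower and 1 was higher, with sums of 296 to 348 CPM in the mutant and 287 to 438 CPM in wild type. spe-11, a sperm-supplied gene needed by the embryo, had the lowest log2 fold change among them at -3.75 ± 0.50 (SE; adjusted p = 0.00267). The higher one was fog-3, which sets the sperm fate, at 1.04 (adjusted p = 0.0258), and 0.02 under total-count scaling. Of the 5 germline stem cell genes, sygl-1 was higher at 0.97 (adjusted p = 0.0367), and -0.04 under total-count scaling; the sums were 163 to 252 CPM in the mutant and 149 to 239 CPM in wild type. The fog-3 call was lost without mutant replicate 2, mutant replicate 3, wild-type replicate 1 or wild-type replicate 3, and the sygl-1 call without mutant replicate 1, mutant replicate 3, wild-type replicate 2 or wild-type replicate 3.

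Of the somatic marker lists, muscle gave the most edgeR calls, where the shares over all genes were 17.1% higher and 20.9% lower. Of 5 body wall muscle genes, 4 were higher and 1 was lower; under total-count scaling edgeR called none of them higher and 1 lower. Of 5 epidermis genes 2 were higher, of 5 neuronal genes 1 was higher and 1 lower, and of 6 intestinal genes 1 was higher. For epidermis, DESeq2 called 4 genes higher and limma-voom 3, and 4 were separated upward (24.4% of all genes). The median log2 fold change of the epidermis genes was 2.61. Of 5 somatic gonad genes, edgeR, DESeq2 and limma-voom called none, and 1 was lower at an unadjusted p under 0.05. Under total-count scaling edgeR called none of the epidermis, neuronal or intestinal genes higher, and 1, 4 and 3 lower. All 5 somatic gonad genes were then lower. Under that scaling 56.4% of all genes were lower and 3.43% were higher. The summed levels, which weight abundant genes, were taken on the TMM scale only. On the TMM scale they did not overlap between the groups. They were 12083 to 17363 CPM in mutant libraries against 4459 to 7654 CPM in wild-type ones for muscle, 3064 to 7362 CPM against 280 to 2160 CPM for epidermis, and 221 to 304 CPM against 146 to 162 CPM for neurons. For intestine they were 1426 to 2247 CPM in mutant libraries against 700 to 1218 CPM in wild-type ones, and for the somatic gonad 49.5 to 58.7 CPM against 78.1 to 97.2 CPM. No marker of these germline and somatic lists was at 0 in all libraries. The part of these cell types in the changes of the small RNA genes was not tested.

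Ratios within a library do not depend on library scaling, and they were compared for levels per kb of exons. The sum of alg-3 and alg-4 over prg-1 was 0.260, 0.178 and 0.184 in the mutant, against 0.428, 0.506 and 0.723 in wild type. The spermatogenic pair was thus lower against the piRNA Argonaute in every mutant library, by 1.40 ± 0.28 on the log2 scale (SE, n = 3 each), and by 1.19 to 1.58 with any 1 library left out. The same sum over alg-1 was 1.84, 0.999 and 0.719 in the mutant, against 4.22, 4.67 and 10.4 in wild type. csr-1 over alg-1 was 5.41, 3.85 and 2.48 in the mutant, against 12.5, 7.73 and 13.2 in wild type, and prg-1 over alg-1 was 7.05, 5.60 and 3.92 in the mutant, against 9.85, 9.22 and 14.3 in wild type. These 3 ratios to the somatic microRNA Argonaute were lower in all mutant libraries than in any wild-type library, with log2 differences of -2.42 ± 0.57, -1.54 ± 0.41 and -1.02 ± 0.32 (SE, n = 3 each). These ratios share alg-1, whose own level differed between the groups.

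Between the germline branches, prg-1 over csr-1 was 1.30, 1.46 and 1.58 in the mutant, against 0.787, 1.19 and 1.09 in wild type. The groups did not overlap, with a log2 difference of 0.52 ± 0.20 (SE, n = 3 each). alg-3 over alg-4 was 0.678, 0.670 and 0.676 in the mutant, against 0.899, 0.737 and 0.909 in wild type. The 3 mutant values were close together and below all wild-type values. For 3 other ratios the groups overlapped: hrde-1 over nrde-3, the nuclear Argonautes of germline and soma, was 11.9 to 24.7 in mutant libraries against 12.3 to 18.9 in wild-type ones, glh-1 over pgl-1 was 1.27 to 1.82 in mutant libraries against 1.43 to 1.81, and alg-5 over alg-1 was 0.235 to 0.905 in mutant libraries against 0.872 to 3.04. With 3 libraries against 3, an exact two-sided permutation test of 1 ratio cannot go below p = 0.10, so none was run.

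**Figure D4:**
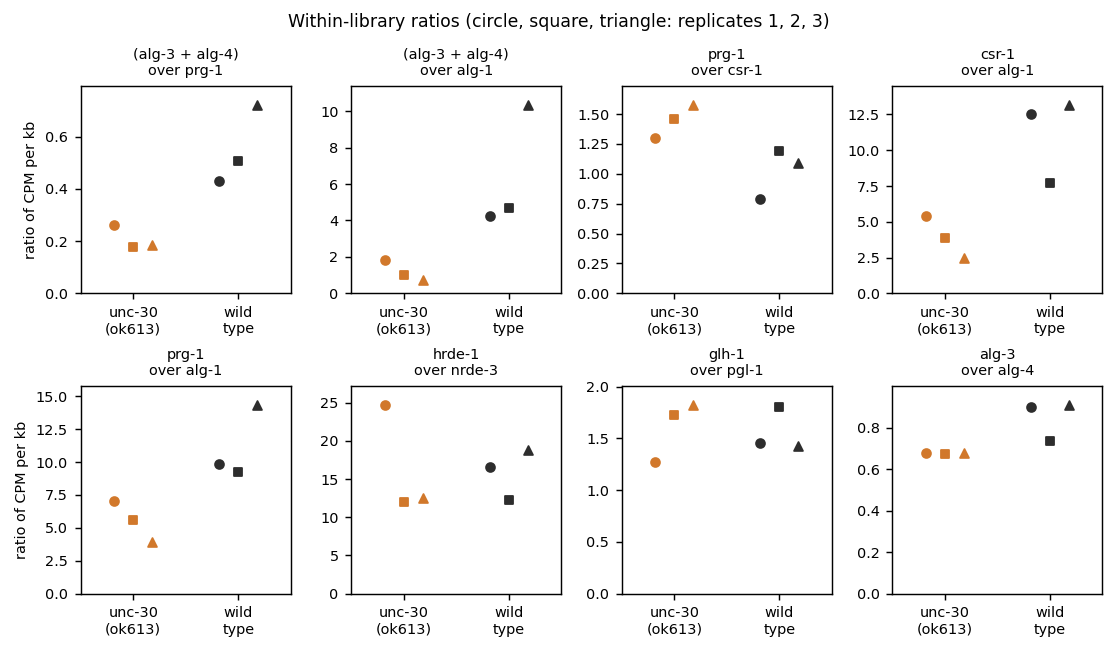
Ratio of levels (CPM per kb of exons) of 2 genes or sums within each library, with the unc-30(ok613) mutant left of wild type and circles, squares and triangles for replicates 1, 2 and 3. The ratio of alg-3 plus alg-4 to prg-1 is 0.178 to 0.260 in mutant libraries and 0.428 to 0.723 in wild-type libraries, while glh-1 over pgl-1 and hrde-1 over nrde-3 overlap.

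The order of levels was compared per kb of exons. glh-1 was the highest of the 52 genes in both groups, with a mean of 260 ± 8.40 CPM per kb in the mutant and 245 ± 47.2 CPM per kb in wild type (SD, n = 3 each). pgl-1 was next, at 166 ± 39.4 CPM per kb in the mutant and 156 ± 8.36 CPM per kb in wild type. wago-1, prg-1, csr-1 and pgl-3 followed, at means of 62.5 to 88.8 CPM per kb in the mutant and 70.3 to 120 CPM per kb in wild type. Their mean ± SD ranges overlapped in the mutant, and those of prg-1, csr-1 and pgl-3 also in wild type. ppw-2 and deps-1 lay in that range in the mutant, at 84.1 ± 7.85 and 75.4 ± 18.1 CPM per kb, and below it in wild type, at 47.8 ± 12.5 and 48.5 ± 11.4 CPM per kb (SD, n = 3 each). rde-1 was far lower, at 2.06 ± 1.29 CPM per kb in the mutant and 11.8 ± 4.72 CPM per kb in wild type.

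**Figure D5:**
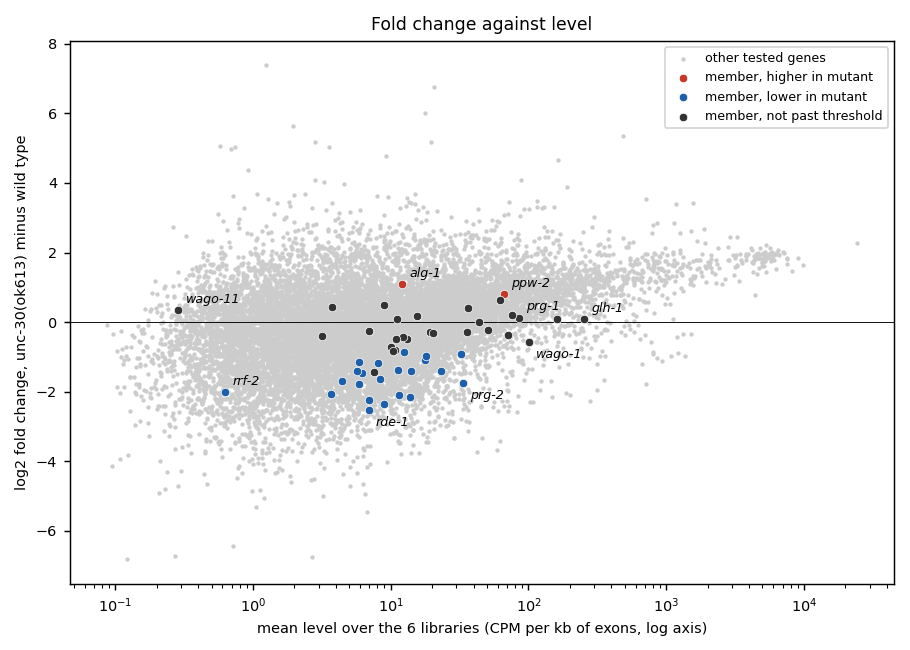
Log2 fold change, unc-30(ok613) minus wild type, against the mean level over the 6 libraries (CPM per kb of exons, log axis) for 14496 genes with a length, in grey, and the 51 tested genes of the set, in red (higher), blue (lower) or black (not past the threshold). glh-1 and wago-1, at the right among the set, are black, and rde-1 is the lowest of the set.

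Fold change went with level among these genes and among genes at large. Across the 51 genes, Spearman's rho of the fold change with level per kb was 0.43, and across 14496 genes it was 0.36, as a description, since the genes share libraries and depth. Of the 16 genes at 20 CPM per kb or more, 3 were lower (18.8%), against 6.70% of all genes at that level. Of the same 16, 1 was higher, against 1578 of all 3938 genes at that level. The median log2 fold changes were -0.11 for the 16 and 0.57 for the 3938. From 5 to 20 CPM per kb, 16 of 29 were lower (55.2%), against 25.8% of all genes there. Below 5 CPM per kb it was 3 of 6 (50%), against 26.5% of all genes. The genes of the set were longer than most, with a median exonic length of 3106 bp against 1366 bp, and rho of the fold change with length was -0.20 in the set and -0.22 over all genes. With the trend on length removed, 15 were lower and 5 were higher, against backgrounds of 18.2% and 19.4%. The calls lost were alg-4, ego-1, eri-1, mut-2, ppw-1, sago-1 and znfx-1, and alg-2, deps-1 and wago-4 then passed as higher.

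Partners of the same pathways outside the set showed a like balance. Of 52 such genes, 18 were lower and 2 higher, with a median log2 fold change of -0.67. Over all genes, 20.9% were lower and 17.1% higher. Leaving out mutant replicate 3, mutant replicate 2 or wild-type replicate 1 brought the lower count to 4, 7 or 10. Over all genes it was then 1432, 1424 or 2555, against 3035 with all libraries. For microRNA processing, 2 of 8 were lower with all libraries, both subunits of the nuclear Microprocessor. Of these, drsh-1 had 4.89, 1.34 and 2.42 CPM in the mutant, against 38.5, 10.7 and 18.2 CPM in wild type. drsh-1 had a log2 fold change of -2.96 ± 0.62 (SE; adjusted p = 0.00921), which became -2.32 without wild-type replicate 1. Its partner pash-1 was at -1.75 ± 0.47 (SE; adjusted p = 0.0215), a call lost without mutant replicate 2, mutant replicate 3, wild-type replicate 1 or wild-type replicate 3. For piRNA transcription and processing, 4 of 12 were lower, led by snpc-4 at -1.48 ± 0.33 (SE; adjusted p = 0.0107) and prde-1 at -1.16 ± 0.25 (SE; adjusted p = 0.00915), both of which act at piRNA loci. These calls were lost without mutant replicate 3, and that of snpc-4 also without mutant replicate 2.

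Among the partners of the ERI, Mutator and 22G pathways, 7 of 13 were lower, where 20.9% of all genes were lower and 17.1% higher. The helicase gene eri-7 was at -2.89 ± 0.68 (SE; adjusted p = 0.0146), not past the threshold without mutant replicate 3 and at -3.60 without mutant replicate 1. drh-2, a relative of drh-1, was at -1.72 ± 0.34 (SE; adjusted p = 0.0066). Of 11 granule and heterochromatin partners, 4 were lower, including the granule gene pgl-2 at -1.90 ± 0.38 (SE; adjusted p = 0.00689) and the histone methyltransferase gene set-32 at -1.53 ± 0.27 (SE; adjusted p = 0.0045). The 2 higher partners were among the 8 genes of double-stranded RNA uptake and editing. tsn-1, the Tudor staphylococcal nuclease of the RISC complex, was at 1.34 ± 0.28 (SE; adjusted p = 0.0081), and 0.31 under total-count scaling. vig-1, another RISC component, was at 0.79 ± 0.22 (SE; adjusted p = 0.0224), a call lost without mutant replicate 2, mutant replicate 3, wild-type replicate 1 or wild-type replicate 3, and -0.23 under total-count scaling. The double-stranded RNA channel gene sid-1 was lower at -0.85 ± 0.29 (SE; adjusted p = 0.0466), a call that was lost without mutant replicate 2, mutant replicate 3, wild-type replicate 1 or wild-type replicate 3.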

How the data were processed

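Each library came with 1 deposited table of raw read counts by WormBase gene, made by the authors with HTSeq; this tool and DESeq2 are the ones listed in the submitters' processing notes. Not given in the sources at hand are versions, aligner, build, annotation and strand setting, so reads of overlapping genes (12 of the 52 genes overlap another, 4 of them over more than 5% of their exonic bases) and of close copies cannot be separated with certainty. Symbols and coordinates came from Ensembl release 115 (WBcel235) and its name table; prg-2 and wago-11 were matched by position in RefSeq. Groups follow the strain labels.

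All 14506 genes passing filterByExpr were fitted with edgeR 4.0.16 (R 4.3.3, TMM, robust quasi-likelihood F-test, Benjamini-Hochberg over all tested genes, threshold 0.05). The fit was tried on simulated data with 200 changed genes, raised and lowered in equal numbers. These data had no difference in composition between groups, so they cannot check the library scaling. DESeq2 1.42.0, limma-voom (limma 3.58.1), other scalings, no filter, a lowess correction on length (span 0.3), a replicate block and leaving out libraries were alternatives. Levels per kb divide by the union of exons. A count of 3 corresponds to 0.0765 to 0.227 CPM; intervals cover counting error only. The share of ribosomal RNA was 7.65% to 12.7% in mutant libraries, against 0.394% to 8.20% in N2 libraries.

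The genes, role groups and lists were chosen with earlier results of these data known. Every one of the 52 genes was reported; of other lists, up to 2 called members with the largest rise and fall were named. Of 145 symbols in the other lists, 3 were not matched.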

Additional observations from a re-analysis of the deposited data

How the results depend on the processing

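Genes of the set called higher (2) and lower (22) and the 5511 calls over all genes changed with library scaling. With total counts alone, 8673 genes were called, and the set had 0 higher and 41 lower; its partners had 0 higher and 37 lower (2 and 18 with TMM). Log2 fold changes then reversed for alg-2 (-0.55), prg-1 (-0.87), ppw-2 (-0.19), wago-4 (-0.60), wago-10 (-0.90), wago-11 (-0.67), sago-2 (-0.58), rde-12 (-1.0), mut-14 (-0.81), pgl-1 (-0.91), pgl-3 (-0.79), glh-1 (-0.93) and deps-1 (-0.37). With the length trend removed, 5 of the set and 8 partners were higher, and ergo-1 (0.29), csr-1 (0.19), hrde-1 (0.28), nrde-3 (0.17), rde-10 (0.022) and glh-4 (0.30) reversed. RLE and DESeq2 each gave 4 higher partners. With both replicate 1 libraries left out, none of the set was higher by edgeR, and prg-1 (-0.11), wago-10 (-0.14), rde-12 (-0.11) and pgl-1 (-0.11) reversed. Leaving out 1 library gave 2791 to 6154 calls over all genes, 0 to 3 higher and 10 to 27 lower in the set, and 1 to 4 higher and 4 to 26 lower among partners; fold changes that reversed ran over -0.53 to 0.15 for ergo-1, -0.77 to 0.084 for hrde-1, -0.21 to 0.50 for wago-10, -0.73 to 0.066 for rde-10, -0.15 to 0.27 for rde-12, -0.054 to 0.27 for pgl-1 and -0.0044 to 0.26 for glh-1. Deviations of same-numbered replicates correlated at 0.46 and 0.44 for replicates 1 and 2, and at -0.07 for replicate 3. Those of unlike numbers ran from -0.51 to 0.33. The replicate numbers thus went with a shared pattern in part, and the main fit had no block. With the number as a replicate block, 6943 genes were called, with 3 higher and 26 lower in the set and 6 higher and 27 lower among partners. Leaving out ribosomal and mitochondrial genes, limma-voom and no low-count filter reversed no gene of the set. The cause of these changes was not tested. Counts were lowest for wago-5, at 0 to 10 per library, and wago-11, at 11 to 39.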

Other observations

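Transcripts known as targets of small RNA silencing were also measured, 6 of 7 with enough counts to test. Of these, 2 were lower in the mutant (20.9% over all genes) and 4 did not pass. Y47H10A.5, a target of secondary siRNAs, had 0.965, 1.40 and 1.74 CPM in the mutant, against 4.03, 7.61 and 4.32 CPM in wild type, with no overlap (log2 fold change -1.96 ± 0.40, SE; edgeR adjusted p = 0.00755). xol-1, the sex determination gene silenced by a piRNA, had 9 counts in total in the mutant, against 81 in wild type (log2 fold change -2.05 ± 0.57, SE; adjusted p = 0.0233), a call lost without mutant replicate 2, mutant replicate 3 or wild-type replicate 1. The 4 others, E01G4.5, K02E2.6, C44B11.6 and bath-45, had log2 fold changes of -0.42, 0.31, 0.60 and -0.73; under total-count scaling K02E2.6 stood at -0.72 and C44B11.6 at -0.43. The one not tested, fbxb-37, had 5 counts, all in wild-type replicate 1.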
